A study of Mus musculus with 6 samples.

Results

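Expression of 5 genes of the kidney proximal tubule, Gatm, Napsa, Aqp1, Hao2 and Aadat, was followed across 6 two-colour arrays of mouse kidney RNA. All probes of the array platform that name 1 of these genes were taken, whatever their values. Each gene had 1 probe, which makes 5 of the 15114 spots that carry a probe for a single named gene and 5 of 9108 genes. The arrays came from male Swiss albino mice of 8 to 10 weeks, with 4 mice per group, whose kidneys were taken 24 h after dosing. The amodiaquine group received 120 mg/kg of amodiaquine, an antimalarial 4-aminoquinoline. The SP group received the antifolate pair Sulfodoxine-Pyrimethamine, 300 mg/kg and then 15 mg/kg. The amodiaquine+SP group received all of these drugs at the same doses. The vehicle mice received DMSO and served as the control of every array. Each treatment had 2 arrays of treated against vehicle RNA with exchanged dyes: the labels give the treated RNA Cy5 on replicate 1 and Cy3 on replicate 2. Whether mice were pooled, or the arrays of a pair shared their extracts, is not stated in the labels, and the spread behind the p-values may then be technical.

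The proximal tubule reclaims most of the filtered water, glucose and amino acids, and carries a large load of mitochondria, peroxisomes and lysosomes. The 5 genes stand for different sides of this work. Gatm encodes the mitochondrial amidinotransferase of the first step of creatine synthesis, a step for which the kidney is a main site. Aadat encodes a mitochondrial aminotransferase that acts on the lysine product aminoadipate and on the tryptophan product kynurenine. Hao2 encodes a peroxisomal oxidase of hydroxy acids, Napsa the lysosomal aspartic protease napsin A, and Aqp1 the constitutive water channel of the proximal tubule and the thin descending limb.

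What a spot reads depends on where the scanner's grid lay, and this touched all 5 genes. The SP pair and the amodiaquine+SP pair were each 1 scan read with 2 grid placements, so the 6 files held 4 distinct scans. In 36.9% of Cy3 and 34.4% of Cy5 values the second SP file repeated foreground values of the first, and in 41.9% and 28.2% the second amodiaquine+SP file did so, against 0.0911% and 0.122% in the amodiaquine pair. Which RNA was in which dye is therefore not settled for SP and amodiaquine+SP, and their values are given as Cy5 over Cy3. Each block of 20 rows by 24 columns was compared with the same block of the other treatments' arrays, in each dye, for displacements of up to 3 rows or columns. Both dyes lay in place in 30 and 37 of the 48 blocks in amodiaquine replicates 1 and 2, in 38 and 5 in SP, and in 34 and 4 in amodiaquine+SP. Moving each block and dye to its best placement gave a realigned grid. In the SP and amodiaquine+SP pairs, identical values gave the same displacement between the files in 183 of 184 blocks and dyes.

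Of the 60 readings of the 5 genes (5 probes, 6 files, 2 dyes), 19 came from a displaced block, 4 of them among the 40 readings of the 4 distinct scans. The realigned grid made the repeated files of a scan alike for these genes. As deposited, 7 of 20 pairs of readings had the same foreground and 9 were over 2-fold apart; after realignment 14 were identical and 1 was over 2-fold apart. That pair was Aqp1 in Cy5 of SP, at 1023 in the first file and 10748 in the second. In a window of 9 rows by 9 columns around the spot, the second file matched best 1 column away (rank correlation 0.63 against 0.36), where the foreground was 947. Such windows settled at the block's own placement in 56 of the 60 readings. The remaining 4 were this one, Hao2 in Cy5 of amodiaquine replicate 2, and Gatm in the vehicle dye of both amodiaquine arrays.

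Napsa was the brightest reading of the 5 genes and the most even one. On the realigned grid its Cy3 foreground was 30436 and 33948 scanner units on amodiaquine replicates 1 and 2, 12392 in the SP scan and 22797 in the amodiaquine+SP scan. In Cy5 the foreground was 6447, 8933, 4111 and 7361 in the same order. All 8 readings were above background, taken as a signal-to-noise ratio of at least 2, and the lowest ratio was 4.23. Ranked among all 23040 spots of a scan by the mean log2 intensity of both dyes, it stood at 98.5%, 98.9%, 96.0% and 98.1%, a mean of 97.9% ± 1.29 (SD, n = 4 scans). On the grid as deposited, amodiaquine replicate 1 gave only 31 in Cy3, displaced by 1 row, and the amodiaquine+SP scan gave 993 and 1210, displaced by 1 column in both dyes. The deposited mean rank was 84.9% ± 21.0 (SD, n = 4 scans). At the realigned Napsa spot of amodiaquine replicate 1 the recorded Cy3 background was 0, as at 7079 spots of that array.

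Aadat was also bright in every scan. Its Cy3 foreground was 7569, 2947, 9561 and 8473 in amodiaquine replicates 1 and 2, SP and amodiaquine+SP, over backgrounds of 169 to 1773. In Cy5 it was 3503, 5021, 2600 and 1944, with signal-to-noise ratios of 8.64, 4.67, 2.07 and 1.37. Of the 8 readings 7 were above background, and the exception was Cy5 of amodiaquine+SP. The mean brightness rank was 93.4% ± 1.51 (SD, n = 4 scans), from 91.9% to 95.4%. The spot lay in a block in place on all 4 scans, so the deposited readings of these scans are the realigned ones. The second files of SP and amodiaquine+SP were displaced by 1 row in Cy3 and gave 1012 and 1024 there, against 9561 and 8473 in the first files.

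Hao2 was bright in 3 of 4 scans and at background in the fourth. Its Cy3 foreground was 6081, 10861 and 9862 in amodiaquine replicate 1, SP and amodiaquine+SP, with signal-to-noise ratios of 10.7 or more. Cy5 in these scans was 6151, 3233 and 3863, with ratios of 5.15, 3.96 and 2.04. In amodiaquine replicate 2 the Cy3 foreground was 1143 over a background of 1066, and Cy5 was 2644 under a background of 4420. The array's median Cy5 background was 1017. The brightness rank was 1.52% on that array against 93.9% to 96.0% in the other 3 scans. By the labels that array's Cy3 held amodiaquine RNA and its Cy5 vehicle RNA, and both were dim, so the readings of Hao2 in the amodiaquine pair differed by array rather than by treatment. The spot sits in the first column of the first block. On that array the window around it matched the other arrays at a rank correlation of 0.39 in Cy3 and 0.32 in Cy5. In the other 3 scans this was 0.62 to 0.84. The Cy5 window matched best 1 column to the left (0.36), which for this spot lies off the block. Whether the local placement of the grid or the raised local background had a part in the dim readings was not tested.

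Gatm read above background in 4 of 8 readings, and its pattern differed between scans. In amodiaquine replicate 1 Cy5 was 7717 over a background of 812 and Cy3 was 518 over 521. In amodiaquine replicate 2 Cy3 was 5021 over 844 and Cy5 was 1884 over 1866. Thus on both amodiaquine arrays the dye labelled as treated was bright and the dye labelled as vehicle was at background. In the SP scan both dyes were at or under background, at 1720 and 1047 over 1785 and 1734. In the first file of the amodiaquine+SP scan both were above it, at 3999 in Cy3 and 4176 in Cy5. In its second file, realigned, Cy5 was again 4176, but Cy3 was 2252 over 1421, with a signal-to-noise ratio of 0.76. Whether vehicle RNA also gave a Gatm signal there is thus not settled, since the dye that held it is not known. The brightness rank was 2.69% in SP and 89.7% to 91.2% in the other 3 scans.

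The Gatm readings in the vehicle dye may have come from places where the grid was locally off, although the whole block lay in place. Within the window of 81 spots around the probe, Cy3 of amodiaquine replicate 1 matched the other arrays best 1 column to the right (rank correlation 0.36 against 0.15). Cy5 of amodiaquine replicate 2 also matched best there (0.50 against 0.46). A bright spot 1 row above and 2 columns right of Gatm was also brighter 1 column on in these dyes. On replicate 1 it gave 181780 in Cy5 at its own position, but in Cy3 1232 there and 12485 1 column on. On replicate 2 it gave 48966 in Cy3, but in Cy5 14238 at its position and 51236 1 column on. Read 1 column on, Gatm was 969 in Cy3 of replicate 1 and 3334 in Cy5 of replicate 2. The amodiaquine ratio of Gatm may thus have set 2 dyes against each other that were not read at the same place. The part of this in the ratio was not tested.

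Aqp1 was the faintest of the 5 in signal over background. In Cy3 its foreground was 1912, 4898, 2117 and 2068 in amodiaquine replicates 1 and 2, SP and amodiaquine+SP, with signal-to-noise ratios of 6.21, 4.71, 0.58 and 1.01. In Cy5 it was 1630, 1581, 1023 and 2025, and no ratio passed 1.74. Only 2 of 8 readings were above background, both in Cy3 of the amodiaquine pair. By the labels these held vehicle RNA on replicate 1 and amodiaquine RNA on replicate 2. The mean brightness rank was 80.3% ± 11.2 (SD, n = 4 scans), from 64.4% to 90.6%. The displaced readings of the second files were brighter: Cy3 was 14984 in SP and 14943 in amodiaquine+SP as deposited, against 1983 and 2068 once realigned.

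**Figure D1:**
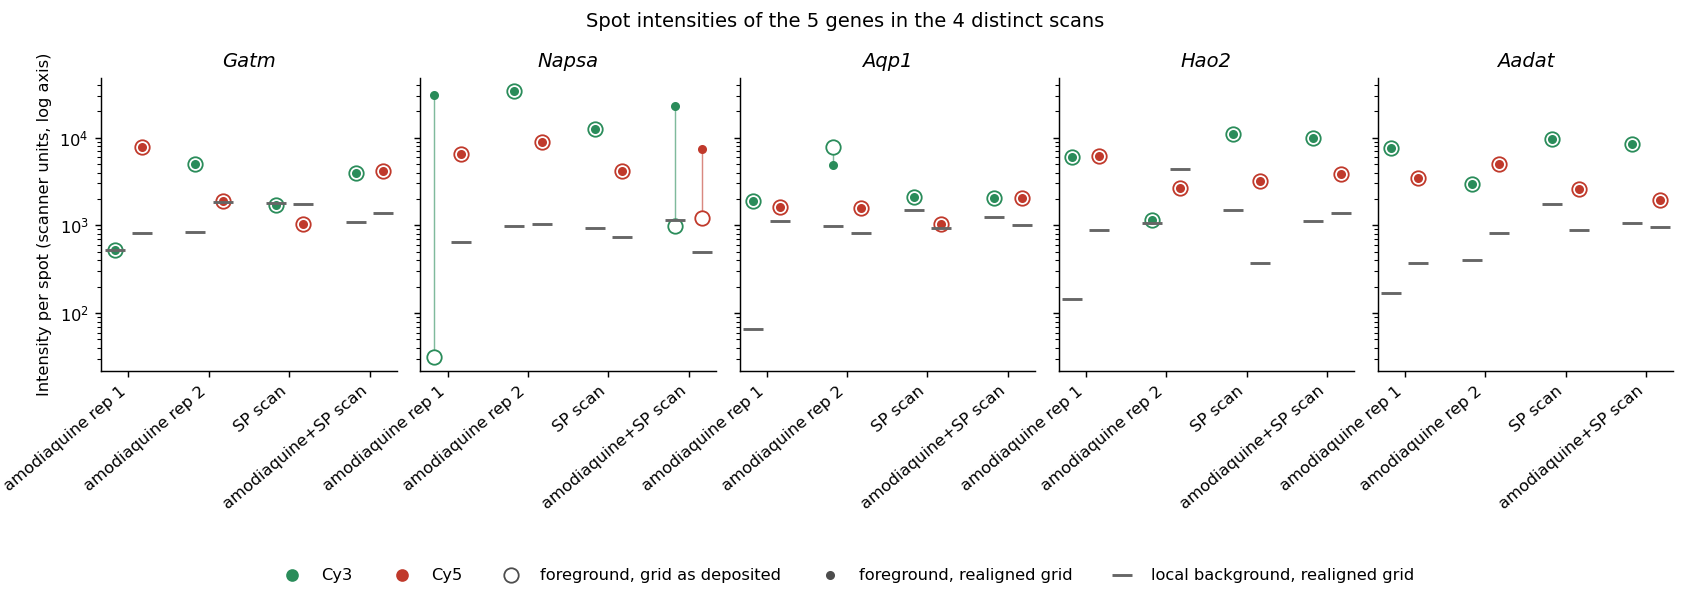
Foreground intensity (log axis, scanner units) of the 5 genes in the 4 distinct scans, in Cy3 (green) and Cy5 (red); open circles are the grid as deposited, filled circles the realigned grid and grey bars the local background, left out where it was recorded as 0. Napsa moves from 31 to 30436 in Cy3 of amodiaquine replicate 1, and Gatm and Hao2 each touch the background in some scans.

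Taken over the 5 probes, the median brightness rank per file averaged 89.2% ± 7.25 (SD, n = 6 files of 4 scans) as deposited and 93.0% ± 1.70 on the realigned grid. Repeated files of a scan enter these SDs as separate values. Of the 40 readings of the 4 scans, 24 were above background as deposited and 27 after realignment. Over all spots, 10.9% to 13.4% of Cy3 readings passed the same mark in 5 files and 34.9% in amodiaquine replicate 1, the array with 7079 Cy3 backgrounds of 0. In Cy5 it was 11.1% to 15.1% per file. The order of the names on the array was itself found from brightness in earlier work on these data, so high ranks are a description and no evidence for that order. The placement of names inside the blocks of the 5 genes rests on few probes. Housekeeping probes had their highest mean rank at no offset, among 49 offsets, in the blocks of Gatm, Napsa, Aqp1 and Aadat, and only Napsa had a wide margin. On a scale of 0 to 1, the block of Napsa had 0.812 against 0.658 at the best other offset (13 probes). The block of Aadat had 0.760 against 0.721 (10 probes), that of Aqp1 0.736 against 0.710 (7 probes) and that of Gatm 0.681 against 0.666 (10 probes). In the block of Hao2 another offset was higher, at 0.657 against 0.650 (12 probes).

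The first comparison asked whether amodiaquine changed these genes. All 5 probes passed the filter on dim spots, and none was called in limma's fit over the 6 arrays at an adjusted p under 0.05. Of the 4426 probes tested, 0.0226% were called, which is 1 probe. As deposited, Aqp1 passed the filter through amodiaquine replicate 1 and otherwise through displaced Cy3 readings. These were in amodiaquine replicate 2 and in the second SP and amodiaquine+SP files. On the realigned grid Aqp1 passed only with the locally displaced Cy5 reading of the second SP file. At an unadjusted p under 0.05 there was 1 member, Napsa, and 281 of all probes. Kidney tissue was measured in bulk, so fewer tubule cells and less RNA per cell could not be told apart in any of these ratios.

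Napsa had the largest estimate, and it came from a displaced reading. By the labelled dyes, its log2 ratio of amodiaquine over vehicle was 2.45 ± 0.80 (SE, n = 2 arrays; limma adjusted p = 0.695). On the realigned grid it was -0.15 ± 0.70 (SE, n = 2 arrays; limma adjusted p = 0.99998, 0 of 3398 probes called). The unturned Cy5 over Cy3 ratio on replicate 1 moved from 1.56 to -3.69 between the grids, while on replicate 2 it was -3.34 and -3.39. After realignment both arrays thus read Cy3 above Cy5 by a similar amount, although the labels exchange the dyes.

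Gatm had an estimate of 2.01 ± 1.31 (SE, n = 2 arrays; limma adjusted p = 0.868) as deposited. On the realigned grid this was 2.04 ± 0.61 (SE, n = 2 arrays; limma adjusted p = 0.737) and with loess within blocks 1.27 ± 0.51 (adjusted p = 0.9998). It was the only member with an unadjusted p under 0.05 for amodiaquine on that grid. Both arrays had the same sign, with Cy5 over Cy3 at 1.78 and -2.29 on the realigned grid. These values rest on the vehicle readings at background that were described above. As deposited, the estimate was 0.39 without amodiaquine replicate 2 and 3.62 without replicate 1. Such fits took the dye term, the Cy5 over Cy3 difference common to all arrays, from the SP and amodiaquine+SP files alone. The second amodiaquine+SP file was displaced, with Gatm at 6.49 as deposited and 1.16 once realigned. The 2 amodiaquine arrays themselves had 1.77 and -2.24 as deposited, so this split does not show that they disagreed.

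Aadat stood at -1.16 ± 0.76 (SE, n = 2 arrays; limma adjusted p = 0.868) as deposited and at -1.12 ± 0.59 on the realigned grid. With loess within blocks the realigned estimate was -0.02 ± 0.34 (SE). The difference lay in replicate 2, where Cy5 over Cy3 was 0.02 with loess over all spots and -1.94 within blocks. On replicate 1 it was -2.22 and -1.98. Over all probes of the realigned grid, the median amodiaquine log2 ratio was -0.13 with loess over all spots and -0.01 with loess within blocks. As deposited these medians were -0.11 and 0.00. As deposited, the Aadat estimate was -0.20 without amodiaquine replicate 1 and -2.12 without replicate 2. These fits also took the dye term from the SP and amodiaquine+SP files alone. The displaced second files gave Cy5 over Cy3 of 2.10 and 0.93 there, against -2.34 and -2.58 once realigned. Which replicate carried the Aadat estimate is thus not settled by leaving out 1 of them.

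Hao2 had -0.27 ± 0.82 and Aqp1 0.82 ± 0.72 (SE, n = 2 arrays; limma adjusted p = 0.999 and 0.915). On the realigned grid they had -0.24 ± 0.55 and 0.39 ± 0.995. As deposited, the sign of Hao2 turned to 0.92 without amodiaquine replicate 2, the array on which it was dim. Without replicate 1 the estimate was -1.46. Here too the dye term came from the SP and amodiaquine+SP files alone. The displaced second amodiaquine+SP file gave Hao2 a Cy5 over Cy3 of -3.71, and -2.22 once realigned. Under any setting run, no member was called for any treatment. The standard errors above draw on the SP and amodiaquine+SP pairs, whose files repeat a scan. With each scan counted 1 time on the realigned grid, and no dye term, the SE was 1.55 for Napsa, 0.93 for Aadat, 0.91 for Hao2 and 0.84 for Gatm. The same fit as deposited gave 0.75 for Napsa, 0.83 for Aadat, 0.79 for Hao2, 0.59 for Gatm and 1.22 for Aqp1. Without a dye term, a dye difference shared by both amodiaquine arrays, as in realigned Napsa, counts as spread. These SEs thus differ from those above by more than the repeated files.

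**Figure D2:**
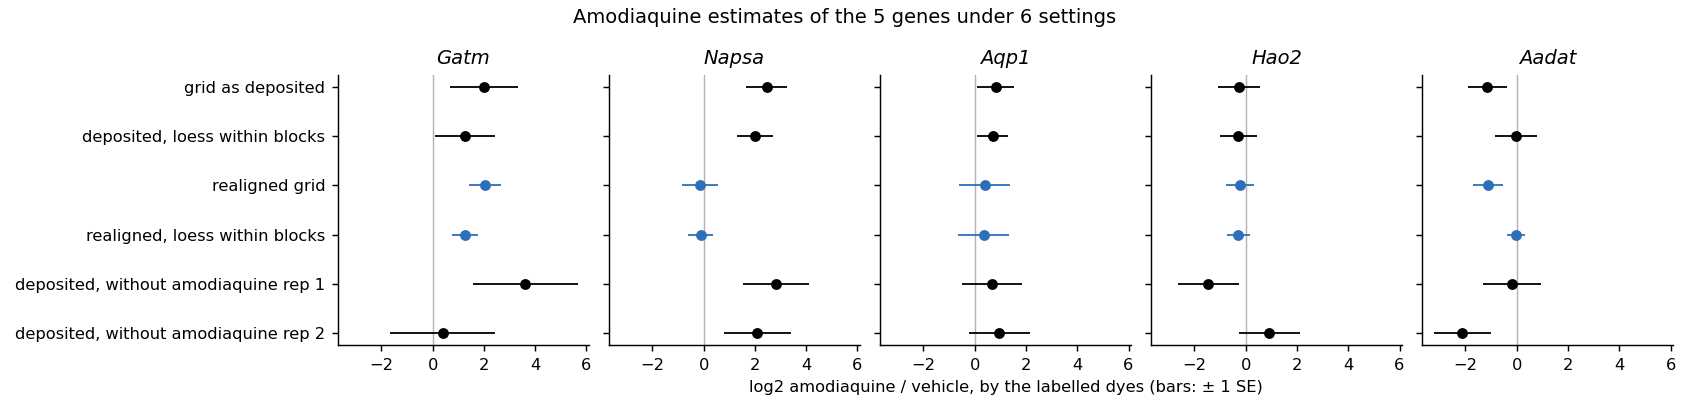
Log2 ratio of amodiaquine over vehicle, by the labelled dyes, for the 5 genes under 6 settings; points are limma estimates, bars ± 1 SE, and blue marks the realigned grid. Napsa moves from 2.45 to -0.15 on the realigned grid, and Aadat from -1.12 to -0.02 with loess within blocks.

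The other comparisons concerned SP and amodiaquine+SP. No member was called for either treatment, and 0% of the 4426 probes were called for each, with 244 and 164 probes at an unadjusted p under 0.05. Several deposited estimates were large and came from setting a displaced second file against the first. By the labelled dyes, Aadat read -2.12 ± 0.76 for SP (SE, n = 2 files of 1 scan; limma adjusted p = 0.744) and 0.09 ± 0.59 on the realigned grid. Gatm read -3.31 ± 1.31 for amodiaquine+SP (limma adjusted p = 0.9999), and -0.65 ± 0.61 once realigned. Aqp1 read 1.87 ± 0.72 for SP, and -1.92 ± 0.995 once realigned, where the second file kept the local displacement given above. In amodiaquine+SP Aqp1 read 1.75 ± 0.72 and then -0.03 ± 0.995. None of these signed values is a response, since each pair was 1 scan.

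As single scans with no test, the realigned Cy5 over Cy3 ratios were as follows for SP. Napsa had a log2 ratio of -1.96, Hao2 -1.86 and Aadat -2.16, all toward Cy3. Aqp1 at -0.64 and Gatm at -0.59 were near background in both dyes, so their ratios carry little signal. In the amodiaquine+SP scan Napsa had -2.65, Hao2 -1.53 and Aadat -1.44. Gatm had -0.14 and Aqp1 0.00 there. The same 3 genes were thus toward Cy3 in both scans.

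Set side by side, the ratios of Napsa, Hao2, Aadat and the fainter Aqp1 mostly lay toward Cy3. The dyes are known to be exchanged by the labels only within the amodiaquine pair. There Napsa kept its sign, at -3.69 and -3.39, and so did Aqp1, at -1.10 and -1.89, with Cy5 at background on both arrays. Aadat had -2.22 and 0.02 with loess over all spots, and Hao2 was at background on replicate 2. Napsa was toward Cy3 in 4 of 4 scans, with a mean log2 Cy5 over Cy3 ratio of -2.92 ± 0.78 (SD, n = 4 scans) and -2.85 ± 0.52 within blocks. It was the only one of the 5 above background in both dyes in all 4 scans. Of the 878 probes that met this mark, 18.6% were toward Cy3 in all 4 scans with loess over all spots and 30.9% with loess within blocks, so Napsa shares this with many probes. Aadat was toward Cy3 in 3 of 4 scans, with a mean of -1.45 ± 1.04, and in 4 of 4 within blocks, with a mean of -1.81 ± 0.38 (SD, n = 4 scans). Among the 2317 probes above background in at least 1 dye in all 4 scans, 21.9% were toward Cy3 in all scans within blocks and 11.6% with loess over all spots. Hao2 was toward Cy3 in 4 of 4 scans, with a mean of -1.35 ± 0.46 (SD, n = 4 scans), though its replicate 2 reading of -0.76 came from background. Aqp1 was toward Cy3 in 3 of 4 scans and in 4 of 4 within blocks. Its mean was -0.91 ± 0.80 (SD, n = 4 scans), with most of its readings at background. Gatm, at 1.78, -2.29, -0.59 and -0.14, was the only one of the 5 with opposite signs on the amodiaquine arrays beyond 1 log2 unit, on the realigned grid with loess over all spots.

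**Figure D3:**
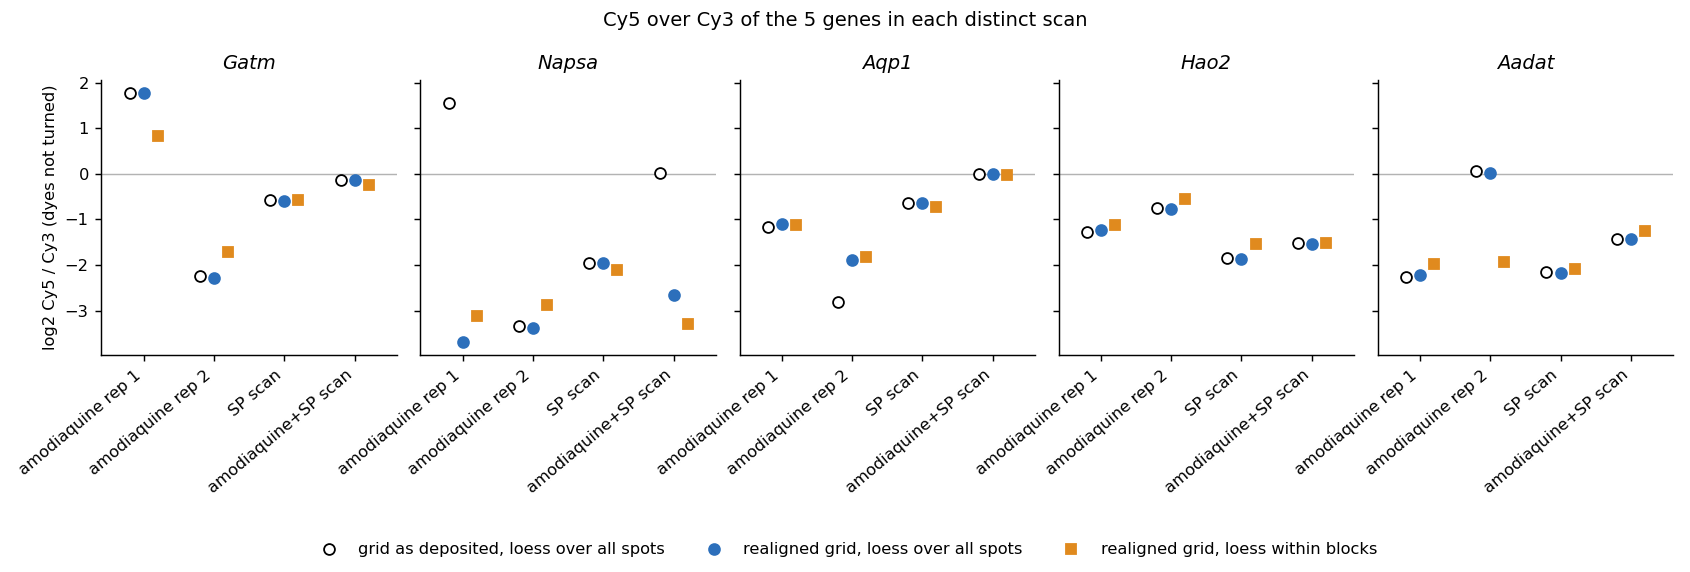
Log2 Cy5 over Cy3 of the 5 genes in each distinct scan, with the dyes not turned; open circles are the grid as deposited, blue circles the realigned grid and orange squares the realigned grid with loess within blocks. Napsa and Hao2 lie below 0 in all 4 scans once realigned, the reading of Hao2 on amodiaquine replicate 2 being at background.

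Other genes of the same pathways were read from lists that hold the 5 genes, each gene by its brightest probe on the realigned grid. Of 79 proximal tubule genes listed, 26 were on the array, and their median brightness rank was 87.9%, against 51.9% for all named genes. Without the 5 genes the other 21 had a median of 89.3%. Gpx3, the plasma glutathione peroxidase made in the proximal tubule, ranked at 98.9% ± 0.91 (SD, n = 4 scans). Slc7a7, part of the basolateral exporter of cationic amino acids, ranked at 97.1% ± 1.02, and Slc27a2, a fatty acid transporter and acyl-CoA synthetase, at 96.9% ± 1.22. Above a rank of 75% were 17 of 26 genes, against 25.2% of all named genes. For this list and those that follow, ranks are on the realigned grid, and amodiaquine values are on the grid as deposited unless realignment is named. Of the 16 that could be tested, 6 read higher and 10 lower with amodiaquine, with a median log2 ratio of -0.13 against -0.11 for all named genes tested, and none was called. After realignment 18 were tested, 7 higher and 11 lower, again with a median of -0.13 against -0.11 and no call. Single genes moved more: Gpx3 went from -1.05 ± 0.70 to -0.18 ± 0.50 (SE, n = 2 arrays).

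**Figure D4:**
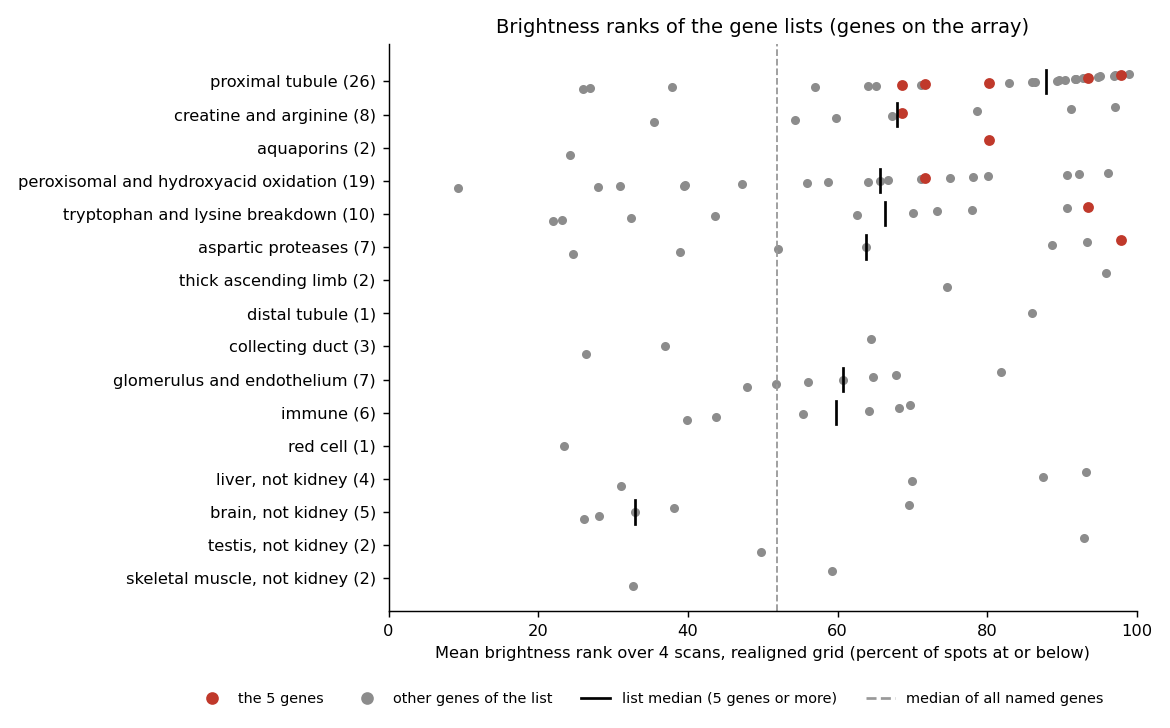
Mean brightness rank over the 4 scans, on the realigned grid, of the genes of each list that are on the array (their number in parentheses), with the 5 genes in red, other genes in grey, list medians as black bars for 5 genes or more and the median of all named genes as a dashed line. Proximal tubule genes have a median of 87.9% and brain genes one of 32.9%.

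Around Gatm, 8 of 16 genes of creatine and arginine metabolism were on the array, with a median rank of 68.0%. Slc7a7 led this list too, followed by Ass1, the argininosuccinate synthase of arginine synthesis, at 91.2% ± 2.45 (SD, n = 4 scans), and Oat, the ornithine aminotransferase, at 78.6% ± 3.53. Of the 3 tested, 2 read higher with amodiaquine and 1 lower, with a median log2 ratio of 0.04. Slc7a7 stood at -0.05 ± 0.72 and Ass1 at 0.04 ± 0.84 (SE, n = 2 arrays). Once realigned, 4 were tested, 3 higher and 1 lower, with a median of 0.04, and Slc7a7 and Ass1 stood at 0.01 ± 0.50 and 0.07 ± 0.63.

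Of 12 aquaporins, only Aqp1 and Aqp9, a channel for water and small solutes of liver, were on the array. Aqp9 ranked at 24.3% ± 19.2 (SD, n = 4 scans) and was too dim to be tested.

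Around Hao2, 19 of 40 genes of peroxisomes and hydroxy acid oxidation were on the array, with a median rank of 65.7%. The brightest were Pex7, the import receptor for the PTS2 signal, at 96.2% ± 0.79 (SD, n = 4 scans), Pex14, a docking protein of peroxisomal import, at 92.2% ± 3.06, and Pex19, a chaperone of peroxisomal membrane proteins, at 90.7% ± 1.53. Of the 7 tested, 5 read higher with amodiaquine and 2 lower, with a median log2 ratio of 0.27, and none was called. The smallest p belonged to Pex14, at -1.47 ± 0.73, and to Pex6, an ATPase that recycles the import receptor, at 1.64 ± 0.83 (SE, n = 2 arrays; limma adjusted p = 0.862 for both). Once realigned, Pex14 stood at -1.43 ± 0.88 and Pex6 at 0.49 ± 0.50 (SE, n = 2 arrays), and the 7 genes tested had a median of 0.32, again with 5 higher and 2 lower.

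Around Aadat, 10 of 20 genes of tryptophan and lysine breakdown were on the array, with a median rank of 66.3%. After Aadat came Got2, the mitochondrial aspartate aminotransferase, at 90.6% ± 6.08 (SD, n = 4 scans), Dhtkd1, a dehydrogenase of the lysine route, at 78.0% ± 11.3, and Aldh7a1, the aminoadipate semialdehyde dehydrogenase, at 73.3% ± 11.5. Of the 3 tested, 1 read higher and 2 lower, and none was called. Their median of -1.16 is the value of Aadat itself, and the other 2 genes, 1 higher and 1 lower, had a median of -0.55. After realignment 2 genes were tested, both lower and with a median of -1.96. Aadat stood at -1.12 ± 0.59 and Got2 at -2.80 ± 2.04 (SE, n = 2 arrays). On amodiaquine replicate 2 the signal-to-noise ratio of Got2 was 0 in Cy3 and 27.4 in Cy5.

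Around Napsa, 7 of 15 aspartic proteases were on the array, with a median rank of 63.8%. Psen2, a catalytic subunit of gamma-secretase, ranked at 93.3% ± 1.04 (SD, n = 4 scans) and Ctsd, the lysosomal cathepsin D, at 88.6% ± 4.66. With amodiaquine Psen2 stood at -1.003 ± 0.74 and Ctsd at -0.25 ± 0.92 (SE, n = 2 arrays). After realignment they stood at -0.97 ± 0.55 and -0.10 ± 0.77. Neither passed the test on either grid.

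The probes most like each gene were found by the Euclidean distance of their deposited Cy5 over Cy3 ratios, over scans with the gene's block in place. Candidates were named probes in place and above background in both dyes in the same scans. Over 4 scans and 181 candidates, Aadat was nearest to Rnf150 (distance 1.27), Eef1a1 (1.31) and Itsn2 (1.55). Hao2 was nearest to Msrb3 (0.88), Sirt1 (1.33) and Opa3 (1.35), and Gatm to Timeless (2.04), Mybl2 (2.09) and Umod (2.14). Over 3 scans and 349 candidates, Aqp1 was nearest to Ppia (0.28), Gpx3 (0.31) and Adamts19 (0.38). Its own Cy5 readings were at background, as were its Cy3 readings in SP and amodiaquine+SP, so these distances carry little signal. The profiles of Gatm and Hao2 also rest in part on readings without signal. For Gatm 4 of the 8 readings were at background, 2 of them with the best local match 1 column away. Both readings of Hao2 on amodiaquine replicate 2 were at background. The block of Napsa was in place on 2 scans only, too few for this measure.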

How the data were processed

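Kidney RNA of 3 treatments was hybridized against vehicle RNA on 6 arrays. Scanner files deposited by the authors give foreground and background intensity on a linear scale per spot and dye, and a signal-to-noise ratio, not normalized (ImageQuant 5.0 and ArrayVision 8.0, per the labels and the series' design text). The authors' deposited log2 ratios, LOWESS-normalized in Avadis 4 per the same text, were turned to treated over vehicle; they were an alternative only. Depth has no count here, and the number of arrays limits the precision.

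Probe names followed the rule that probe block p, from 0, sits at scanner block 12 x (p mod 4) + floor(p/4). Of 9108 genes named, 8991 matched the RefSeq table of GRCm38.p6, used for symbols only. Coordinates are left out, as no build is stated for the probes.

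Intensities were corrected with normexp (offset 50) and then loess-normalized across each whole array (limma 3.58.1, R 4.3.3). Probes with a signal-to-noise ratio of at least 2 in a dye on at least 3 arrays were kept (4434), and 4426 had values on all arrays. On SP replicate 1, 58 spots without a Cy5 background were left out. The model had a term per treatment, signed by the labelled dye, and a dye term, with 2 residual degrees of freedom that rest on the repeated files. Benjamini-Hochberg adjustment ran over all probes tested, with a threshold of 0.05. The realigned grid took each block and dye at the placement with the highest rank correlation to the other treatments' scans, chosen in Python 3.11.15 after the data were seen. Its fit used 3398 probes. Both steps were tested on simulated data. The simulated arrays of the fit were independent, unlike the repeated files, and the simulated blocks were displaced as a whole. Neither test thus covered repeated scans or local displacement. The members and lists were chosen with earlier results of these data known. The genes named were all members and, per list, the brightest 2 to 4 and the 2 with the smallest amodiaquine p. Alternatives were background subtraction, loess within blocks, other filters, fits and grids, the authors' values and leaving out each array. No sequence is printed, since probe sequences were not used here.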

Additional observations from a re-analysis of the deposited data

How the results depend on the processing

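No paired analysis was possible because the labels give the dye orientation of each array and no replicate number that pairs arrays across treatments, so no replicate block was fitted. The count of members called was 0 for each treatment under all settings run, with 20 alternatives for amodiaquine and 18 each for SP and amodiaquine+SP. The count of all probes called for amodiaquine, 1 as reported, was 0 with background subtracted, loess within blocks, no filter on dim probes, the treatment fitted alone, the authors' deposited values, each scan counted 1 time, blocks in register on both arrays and every fit on the realigned grid. It was 0 to 0 on leaving out each array. It stayed at 1 without counting backgrounds of 0 and with an intensity trend and robust prior. For SP and amodiaquine+SP it was 0 throughout. The median brightness rank of the 5 probes was 75.8% ± 15.2 (SD, n = 6 files of 4 scans) with names taken by spot number, against 89.2%. It was 88.2% to 92.1% on leaving out each array. The other alternatives kept it within 1 SD. Among the amodiaquine estimates, Napsa reversed to -0.15 on the realigned grid, also with the probes kept on the deposited grid, with each scan counted 1 time and with amodiaquine alone, and to -0.12 with realigned loess within blocks. Hao2 reversed to 0.14 with background subtracted and to 0.92 without amodiaquine replicate 2, against -1.46 without replicate 1. Gatm, Aqp1 and Aadat kept their direction under every alternative run, with ranges of 0.39 to 9.12, 0.35 to 0.96 and -2.12 to -0.02. For many alternatives this was fixed in advance. On a given grid and normalization, the filters, the prior, fits without a dye term and leaving out an SP or amodiaquine+SP array cannot change an amodiaquine estimate. Gatm was 2.01 in all of these as deposited. Leaving out an amodiaquine array left the dye term to the SP and amodiaquine+SP files, as for the amodiaquine estimates above. No limma adjusted p of these estimates was under 0.598. The ratios per scan moved by more than the spread of a treatment's 2 files in 35 of 107 values. This spread was the SD of the 2 deposited Cy5 over Cy3 ratios, with the dyes not turned. It thus holds the dye exchange of the amodiaquine pair and the grid displacement of the files, and is no replicate spread. The realigned grid and blocks in register on both arrays were chosen after seeing the data. Signal over background limits Aqp1 in all scans, Gatm in SP and in the vehicle dye of both amodiaquine arrays, Hao2 in amodiaquine replicate 2 and Aadat in Cy5 of amodiaquine+SP. The causes of these changes were not tested.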

Other observations

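Markers of other kidney cells were read in the same way, each by its brightest probe on the realigned grid over 4 scans. Umod, which encodes the uromodulin secreted by the thick limb, ranked at 95.9% ± 2.25 (SD, n = 4 scans) and was above background in both dyes in 4 of 4 scans. Slc12a1, the sodium, potassium and chloride cotransporter of the same segment, ranked at 74.6% ± 12.0 (SD, n = 4 scans) and was above background in both dyes in 1 of 4 scans. Calb1, a calcium-binding protein gene of the distal tubule, ranked at 86.0% ± 7.96. The 3 collecting duct genes on the array had a median rank of 37.0%, the 7 genes of glomerulus and endothelium 60.7% and the 6 immune genes 59.8%. Alas2, the only red cell gene on the array, ranked at 23.5%. The tested genes of these lists gave no call for any treatment.

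Among genes of tissues other than kidney, 5 brain genes had a median rank of 32.9%, 2 skeletal muscle genes 46.0% and 2 testis genes 71.3%, with Odf2 at 92.9%. The 4 liver genes had a median of 78.6%. Of these, Apoa1 ranked at 93.2% ± 1.44, Alb at 87.4% ± 3.53 and Fga at 31.0% ± 12.4 (SD, n = 4 scans). Ttr ranked at 69.9%, with values in amodiaquine replicate 1 and the amodiaquine+SP scan only. Alb was above background in both dyes in 0 of 4 scans, and Apoa1 in 3 of 4. These 3 include amodiaquine replicate 1, where the recorded Cy3 signal-to-noise ratio of Apoa1 was 1.62e+99, not a usable value.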
